A study of Mus musculus with 2 samples.

Results

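The genes described here supply activated T cells with amino acids or belong to the response that is switched on when amino acids run short. They are 42 genes in 4 groups: 10 stress genes controlled by or acting with the transcription factor ATF4, 4 enzymes of amino acid synthesis, 10 amino acid transporters of the cell surface and 18 cytosolic aminoacyl-tRNA synthetases. A member was measured if at least 1 probe set of the array carried its symbol as the only symbol in the platform annotation. By this rule 36 of the 42 were measured, among 11807 genes in all, and they were read by 57 probe sets. Slc43a1, Slc1a4, Cars, Dars, Mars1 and Tars were not analysed here.

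The series compares cultures of CD4+ T cells without and with IL-27, a cytokine of the IL-12 family, and was made to screen for transcription factors that the cytokine induces. The cells were naive CD4+ T cells of female C57BL/6J mice, taken from lymph nodes and spleen, and activation with plate-bound antibodies against CD3 and CD28 lasted 60 h. The untreated group received no cytokine and the IL-27-treated group received recombinant mouse IL-27 at 25 ng/ml. The arrays are called the control array and the IL-27 array below, after their labels alone. Each group has 1 array, made from total RNA of the culture. The strain, the sex and the activation are shared by both groups, and the labels do not say how many mice were pooled.

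With 1 array per group there is no replicate, so differences carry neither a test nor an error. Every value is an intensity, the brightness of a probe set after the authors' normalization, and every difference is the log2 intensity on the IL-27 array minus that on the control array. Where a pair of intensities is given, the control array comes first. Gene symbols with several probe sets are represented by the brightest of them. The other probe sets give a measure of probe error only: over 2455 genes with several probe sets above background, the pooled SD of the log2 difference within a gene was 0.22. Background was set at an intensity of 19.1, from genes of other tissues, and 7343 genes were brighter than this on 1 or both arrays. A gene is called higher or lower where its intensities were at least 1.5-fold apart, and those at least 2-fold apart are also counted.

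The arrays had median intensities of 33.3 (control) and 32.4 (IL-27). All 9 measured markers of the T cell list exceeded background, with summed intensities of 18328 (control) and 16787 (IL-27), and Cd4 itself stood at 342.5 and 395.4. The CD8 genes Cd8a and Cd8b1 summed to 136.5 and 196.0. Of the B cell list 1 of 6 and of the myeloid list 2 of 9 exceeded background, with summed intensities of 85.4 and 90.5, and of 168.3 and 137.1. Of the NK cell list 2 of 5 exceeded it, Klrd1 and Klrk1, which activated T cells can also carry, while Ncr1, Klrb1c and Klra8 were below it on both arrays. The summed NK list stood at 216.3 on the control array and 66.9 on the IL-27 array, and the part of other cell types in the differences below was not tested. In a bulk sample, fewer cells of a type and less RNA per cell cannot be told apart. Directions follow the labels, and Socs3 goes against them: this feedback gene, which IL-27 is known to raise through STAT3, stood at 1122 and 185.8, 6.04-fold lower with IL-27 as labelled. Should the labels be exchanged, every direction and rank below would turn, which was not tested.

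Amino acid shortage leaves transfer RNAs uncharged, which activates the kinase GCN2, encoded by Eif2ak4. GCN2 phosphorylates the initiation factor eIF2, general translation slows, and the mRNA of Atf4 is translated more, so its mRNA level is only a part of its control; ATF4 protein was not measured here. Other kinases of eIF2 feed the same response from the endoplasmic reticulum, from double-stranded RNA and from haem shortage, which is why it is called the integrated stress response. ATF4 protein binds, often with a C/EBP partner, to short elements in target genes and raises transporters, synthesis enzymes, tRNA synthetases and stress regulators. T cells need much amino acid uptake when they are activated to divide, and transporters such as Slc7a5 are induced at that time.

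The sequence that ATF4 and its C/EBP partners bind, the C/EBP-ATF response element, has the core TGATGNAA. This core was searched on both strands of the RefSeq promoter windows (build GRCm38.p6, 250 bases before to 50 bases after the start of a gene), where 32 of the 42 members could be matched. It was found in 11 of the 32 matched members (34.4%) and in 4.51% of all 27025 genes of the table. The 11 are Trib3, Chac1, Vldlr, Asns, Slc7a11, Slc1a4, Aars, Gars, Iars, Tars and Yars. A match is a description of letters and not a shown binding site, and no match says only that these letters are not in the window. Because the members were listed partly as known ATF4 targets, the share is no independent evidence about them.

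The promoters of the lower stress genes Vldlr and Trib3 are shown because both hold the core, and those of Ddit3 and Phgdh because they are the stress gene with the next lowest difference and the member with the highest difference, and hold none in this window. Capitals mark the core, which both Vldlr and Trib3 carry on the strand opposite to the gene. Each is printed along the strand of its gene, and Vldlr has a further entry without the core. The windows lie at chr19:27216770-27217069 (Vldlr, plus strand), chr2:152344011-152344310 (Trib3, minus strand), chr10:127290543-127290842 (Ddit3, plus strand) and chr3:98339920-98340219 (Phgdh, minus strand).
Vldlr: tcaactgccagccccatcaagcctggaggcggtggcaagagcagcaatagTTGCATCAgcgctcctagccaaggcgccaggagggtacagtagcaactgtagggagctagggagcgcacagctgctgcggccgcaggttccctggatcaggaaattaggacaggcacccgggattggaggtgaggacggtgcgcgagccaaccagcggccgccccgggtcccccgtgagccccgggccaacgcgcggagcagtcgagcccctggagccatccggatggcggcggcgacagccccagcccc
Trib3: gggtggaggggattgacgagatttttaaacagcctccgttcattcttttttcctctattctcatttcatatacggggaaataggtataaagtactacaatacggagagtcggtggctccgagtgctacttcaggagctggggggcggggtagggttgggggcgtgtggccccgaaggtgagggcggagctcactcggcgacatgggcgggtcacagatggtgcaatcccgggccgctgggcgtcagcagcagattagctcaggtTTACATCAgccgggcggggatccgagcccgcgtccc
Ddit3: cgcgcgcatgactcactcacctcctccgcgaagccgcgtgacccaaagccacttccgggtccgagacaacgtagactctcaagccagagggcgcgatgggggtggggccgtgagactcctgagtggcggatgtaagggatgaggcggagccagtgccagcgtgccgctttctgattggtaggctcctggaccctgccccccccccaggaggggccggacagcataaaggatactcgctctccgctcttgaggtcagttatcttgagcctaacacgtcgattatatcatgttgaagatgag
Phgdh: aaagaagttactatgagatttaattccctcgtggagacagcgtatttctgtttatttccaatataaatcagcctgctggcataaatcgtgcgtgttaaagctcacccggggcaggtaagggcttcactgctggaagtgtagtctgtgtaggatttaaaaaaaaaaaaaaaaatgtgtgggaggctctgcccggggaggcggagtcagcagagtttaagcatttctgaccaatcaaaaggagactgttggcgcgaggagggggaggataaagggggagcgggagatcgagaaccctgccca

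The other measured members above background that hold the core are shown as windows of 40 bases, turned so that the core reads the same way in each. They are set side by side because they include Chac1 and Asns, which are among the best known ATF4 targets, and 4 synthetases. The windows lie at chr2:119351033-119351072 (Chac1), chr6:7693209-7693248 (Asns), chr8:111033714-111033753 and chr8:111033835-111033874 (Aars), chr6:55037955-55037994 (Gars), chr13:49682121-49682160 (Iars) and chr4:129189890-129189929 (Yars). All are on the minus strand except that of Yars, on the plus strand. The base at the variable position of the core is C or A in these windows and T in Trib3.
Chac1: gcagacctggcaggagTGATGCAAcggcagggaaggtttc
Asns: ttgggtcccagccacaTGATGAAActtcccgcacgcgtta
Aars, first: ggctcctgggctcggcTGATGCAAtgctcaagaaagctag
Aars, second: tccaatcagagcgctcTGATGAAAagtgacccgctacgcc
Gars: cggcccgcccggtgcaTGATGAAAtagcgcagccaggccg
Iars: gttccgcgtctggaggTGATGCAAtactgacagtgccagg
Yars: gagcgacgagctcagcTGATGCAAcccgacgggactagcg

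Stress genes were the group with lower levels on the IL-27 array. All 10 were measured and above background, and 5 of them were at least 1.5-fold lower, where 7.03% of all genes above background were. None of the 10 was at least 1.5-fold higher, where 5.01% of all genes were, and 8 of 10 were lower by any amount, against 48.2% of all genes. At 2-fold, 1 of the 10 was lower, against 2.60% of all genes. The group's median difference was -0.50, and that of all genes 0.01. The 4 synthesis enzymes, which ATF4 also raises, were counted apart. All 4 had positive differences and 1, Phgdh, was called higher, so the stress gene counts and median depend on that split. The 5 lower genes were Vldlr, Ddit3, Ddit4, Cebpb and Trib3.

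**Figure D1:**
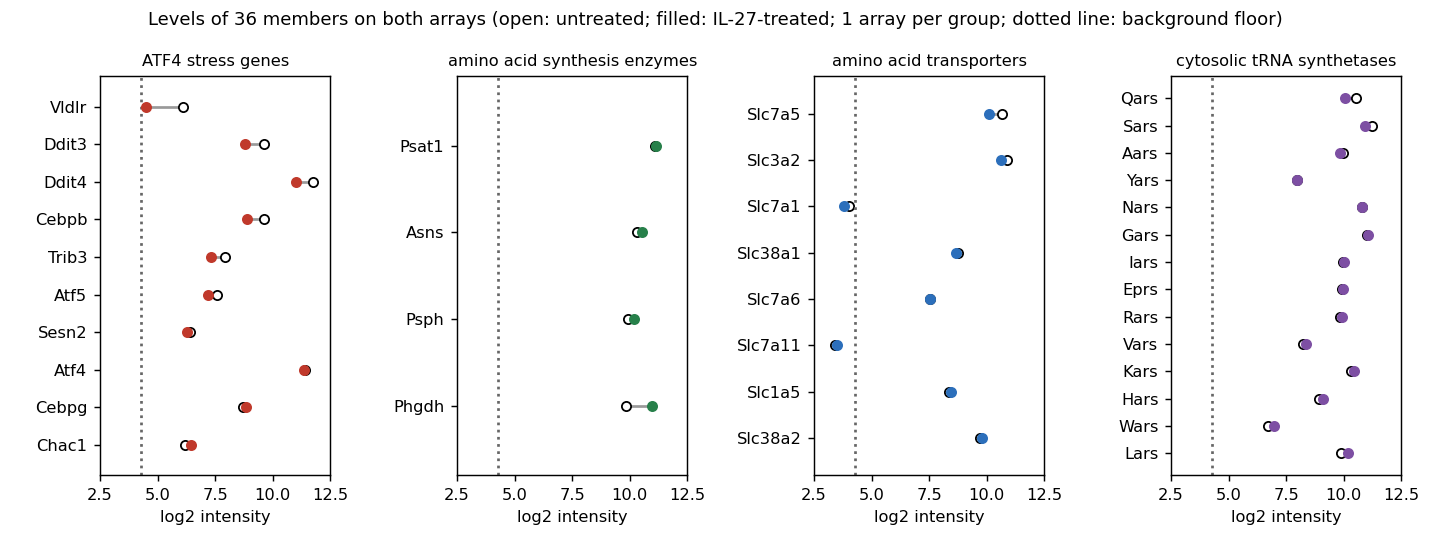
Log2 intensity (x axis) of the 36 measured members on the control array (open points) and the IL-27 array (filled points), in 4 panels by group, with 1 array per group and the background floor as a dotted line. In the panel of stress genes the filled point lies to the left for 8 of 10 genes, whereas Phgdh is the member furthest to the right of its open point; Slc7a1 and Slc7a11 lie below the floor.

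Vldlr encodes the very low density lipoprotein receptor, a lipoprotein and reelin receptor that ATF4 is known to raise under stress. Its brightest probe set stood at 68.0 on the control array and 22.2 on the IL-27 array, which is 3.07-fold lower and the 65th lowest difference of the 7343 genes. The lower value is close to the background floor. A second probe set gave 33.95 and 21.3, a difference of -0.67 against -1.62, and its dimmest probe set did not reach the floor. Both probe sets above background were thus lower, but the size of the difference rested on which was read.

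Ddit3 encodes CHOP, a transcription factor that ATF4 induces and that promotes death of stressed cells. Its intensities were 786.2 and 436.9, 1.80-fold lower on the IL-27 array. Trib3 encodes a pseudokinase that CHOP and ATF4 induce together and that restrains both ATF4 and the kinase AKT. Trib3 stood at 243.7 and 161.0, a difference of -0.60, only just past 1.5-fold. It was short of that threshold after each array's median was subtracted and with a pseudocount of 16.

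Ddit4 encodes REDD1, an inhibitor of the growth kinase mTORC1 that is induced by ATF4, by hypoxia and by glucocorticoids. Its intensities were 3422 and 2038, 1.68-fold lower on the IL-27 array. Sesn2 encodes sestrin 2, which also restrains mTORC1 and senses leucine. It differed little, with 85.0 and 76.5 by its brightest probe set and a difference of -0.19 by the other. Of these inhibitors of mTORC1 induced by ATF4, Ddit4 was thus called lower and Sesn2 was not.

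The C/EBP factors, which pair with ATF4 on DNA, did not lie on one side. Cebpb stood at 795.9 and 474.6, 1.68-fold lower on the IL-27 array, and its second probe set gave a difference of -0.89 against -0.75 for the first. Cebpg stood at 422.5 and 458.5, a difference of 0.12, and its next probe set differed by -0.05. The dimmest probe set, at 20.3, was near the floor on the control array and below it on the IL-27 array. The sign for Cebpg thus depended on the probe set, and it was negative for the mean of them.

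Atf4 itself had nearly equal intensities of 2688 and 2655, a difference of -0.02 whose sign turned when array medians were subtracted, and its other probe set did not reach the floor. Its relative Atf5, also a stress factor controlled by translation, stood at 191.7 and 144.3, a difference of -0.41. Chac1, which degrades glutathione and is among the genes most responsive to ATF4, stood at 73.4 and 86.1, a difference of 0.23. The mRNAs of Atf4 and Chac1 did not share the lower level of Ddit3, Ddit4, Cebpb, Vldlr and Trib3.

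Levels of the synthesis enzymes lay on the other side. All 4 were above background and had positive differences, against 51.5% of all genes, except that Psat1 turned negative with loess normalization, and their median was 0.25. At both folds 1 of 4 was higher, Phgdh, where 5.01% of all genes were at least 1.5-fold and 1.43% at least 2-fold higher. Phgdh encodes phosphoglycerate dehydrogenase, the first enzyme of serine synthesis from glycolysis. Its intensities were 919.4 and 1973, a 2.15-fold difference and the 85th highest of the 7343 genes. Its other probe set gave 974.7 and 1827, a difference of 0.91. Both probe sets are of the types s and x, whose probes can match related transcripts, so the value is uncertain to that extent.

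The next enzymes of serine synthesis did not share the size of that difference. Psat1, the aminotransferase that acts second, stood at 2192 and 2223, a difference of 0.02. Psph, the phosphatase that releases serine, stood at 976.6 and 1177, a difference of 0.27. Asns, asparagine synthetase and the classical gene of the amino acid response, stood at 1264 and 1487, a difference of 0.23. Psph and Asns were therefore on the same side as Phgdh but well within 1.5-fold.

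**Figure D2:**
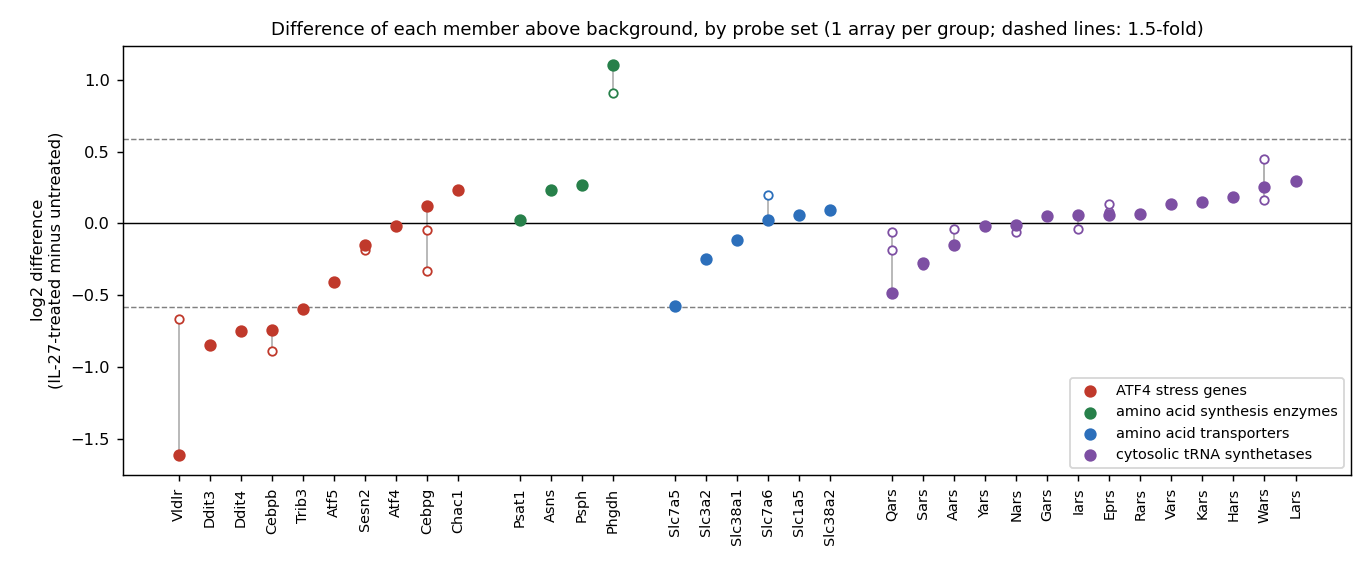
Log2 difference, IL-27-treated minus untreated (y axis), of the 34 members above background, with the brightest probe set as a filled point, other probe sets above background as open points and dashed lines at 1.5-fold. Vldlr, Ddit3, Ddit4, Cebpb and Trib3 lie below the lower line, Phgdh is above the upper line with both of its probe sets, and all 14 synthetases lie between the lines.

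Of the 8 amino acid transporters measured, 6 were above background, with a median difference of -0.05. Of these, 0 were called lower and 0 higher at 1.5-fold, beside 7.03% and 5.01% of all genes, and with 6 genes these counts are near those shares. These values describe 2 arrays, and 3 of the 6 were higher and 3 lower by any amount. Slc7a5, which encodes LAT1, the main importer of leucine and other large neutral amino acids in activated T cells, had the lowest difference. It stood at 1635 and 1098, a difference of -0.57, just short of the threshold that Trib3 at -0.60 just passed. With loess normalization it was past 1.5-fold.

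Slc3a2 encodes CD98, the heavy chain that carries LAT1 to the cell surface. Its intensities were 1860 and 1564, a difference of -0.25, on the same side as Slc7a5. Slc7a6, a further light chain of CD98 that exchanges arginine and leucine, stood at 184.0 and 186.5, a difference of 0.02, and its second probe set gave 0.20. The light chains of CD98 thus had unlike values, -0.57 for Slc7a5 and 0.02 for Slc7a6, neither of them past 1.5-fold.

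Transporters of glutamine and small neutral amino acids had differences near 0. Slc1a5, the exchanger ASCT2, stood at 330.5 and 344.4, a difference of 0.06. Slc38a1 (SNAT1) differed by -0.12, with 433.6 and 399.6. Slc38a2 (SNAT2), which amino acid shortage is known to raise, differed by 0.09, with 833.9 and 888.7. The cystine importer Slc7a11, a known ATF4 target that holds the core on each strand of its promoter window, read 10.7 and 11.1. The arginine and lysine importer Slc7a1 read 16.01 and 14.0. Both were below background on both arrays and get no fold.

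The cytosolic tRNA synthetases, which attach amino acids to their transfer RNAs, had a median difference near that of all genes, 0.06 beside 0.01. All 14 measured genes were above background and within 1.5-fold, as were 6459 of the 7343 genes. Thus 0 were called higher or lower, beside 5.01% and 7.03% of all genes, and with 14 genes these counts are near those shares. The range ran from -0.49 to 0.29, and 9 of 14 were higher by any amount. Among them were known ATF4 targets such as Aars, Gars, Nars, Sars and Wars. The group did not share the lower levels of the stress genes, and the difference between the groups was not tested.

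Qars, the glutaminyl-tRNA synthetase, had the lowest difference, with intensities of 1466 and 1046. Its 2 further probe sets above background differed by -0.18 and -0.06 against -0.49 for the brightest, so the size depended on the probe set. Sars, for serine, stood at 2378 and 1964, and its probe sets gave -0.28 and -0.29. Aars, for alanine, stood at 1009 and 907.3, a difference of -0.15, and its other probe set gave -0.04. These were the 3 synthetases below -0.10.

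At the other end was Lars, for leucine, with 937.0 and 1148 and a difference of 0.29. Wars, for tryptophan, which interferon-gamma is known to raise, stood at 104.5 and 124.2. Its 3 probe sets differed by 0.25, 0.45 and 0.16, all on the same side. Hars, for histidine, differed by 0.18, with 478.0 and 541.8. Kars (lysine), which stood at 1268 and 1403, differed by 0.15, and Vars (valine), which stood at 303.8 and 332.8, by 0.13. These differences were of the order of the probe error given above.

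The 6 remaining synthetases lay within 0.07 of 0 on the log2 scale. Rars (arginine) read 914.7 and 958.4, Eprs (glutamate and proline) 954.9 and 993.1, and Iars (isoleucine) 995.4 and 1035. Gars (glycine) read 2042 and 2112, Nars (asparagine) 1764 and 1752, and Yars (tyrosine) 250.8 and 248.0. The sign of Iars turned when only its plain probe set was read, and those of Nars and Yars when array medians were subtracted. Eprs, Iars, Kars, Lars, Qars and Rars belong to a large complex of synthetases held together by scaffold proteins. Their median difference was 0.06, and that of the 8 measured synthetases outside the complex was 0.02.

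Over all 34 members above background, 5 were at least 1.5-fold lower and 1 higher, beside 7.03% and 5.01% of all genes, and the median difference was 0.02, beside 0.01 for all genes. At 2-fold 1 was lower and 1 higher, beside 2.60% and 1.43% of all genes. The lower calls all came from the stress genes and the higher call from the synthesis enzymes.

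**Figure D3:**
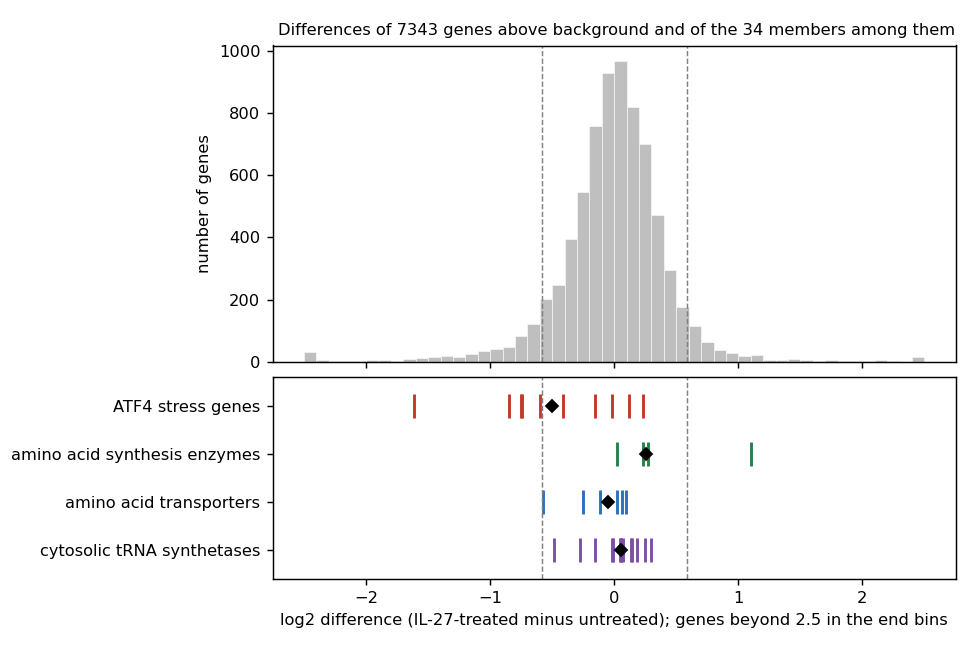
Number of genes (upper panel, y axis) by log2 difference, IL-27-treated minus untreated (x axis), for the 7343 genes above background, with the members as ticks and each group's median as a diamond in the lower panel. The median of the stress genes is at -0.50, left of the bulk of all genes, and those of the synthesis enzymes, transporters and synthetases are at 0.25, -0.05 and 0.06.

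Members with the core in the promoter window and members without it were both found on either side of 0. The groups are small and 10 members could not be matched, so whether the core goes with a direction was not tested. Of the 8 members above background with the core, Vldlr and Trib3 were at least 1.5-fold lower, Chac1 and Asns differed by 0.23 each, and the synthetases Aars, Gars, Iars and Yars lay between -0.15 and 0.06. Their median difference was 0.02. Of the 17 matched members above background without it, 3 were at least 1.5-fold lower, Ddit3, Ddit4 and Cebpb, and 1 higher, Phgdh. Their median was -0.02. The known element of Ddit3 lies further upstream than the window reaches.

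Other genes of the pathway were taken from 6 lists of 115 genes that hold no member. Of the 77 measured, 64 were above background, of which 4 were called higher at 1.5-fold and 3 lower, near the 5.01% and 7.03% of all genes, and their median difference was 0.05. In the list of eIF2 kinases, phosphatase subunits and exchange factor, 11 of 16 genes were measured. The kinase for double-stranded RNA was not analysed, and the other sensors upstream of ATF4 differed little. The kinase genes Eif2ak1, Eif2ak3 and Eif2ak4, for HRI, PERK and GCN2 and named here after their values were seen, differed by 0.04, -0.08 and -0.13. Eif2b2 and Eif2b4, subunits of the exchange factor of eIF2, differed by -0.33 and 0.19. The 1 gene past 1.5-fold in that list was Ppp1r15a, which encodes GADD34, the stress-induced subunit of the phosphatase that ends the response. It stood at 246.2 and 122.4, 2.01-fold lower on the IL-27 array, while its constitutive counterpart Ppp1r15b differed by 0.20.

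Of 18 further genes reported as ATF4 targets and above background, 3 were called higher at 1.5-fold and 2 lower, beside 5.01% and 7.03% of all genes. Ndrg1, a stress gene that hypoxia also induces, stood at 1123 and 300.8, 3.73-fold lower. Ero1a, an oxidase of the endoplasmic reticulum that CHOP and hypoxia induce, stood at 3222 and 1010, 3.19-fold lower, and all 3 of its probe sets differed by -1.51 or less. Both are known hypoxia-induced genes, as are Ddit4 and Vldlr among the members. No list of hypoxia genes was read here, oxygen supply was not measured, and a link to hypoxia was not tested. On the other side, Gpt2, the mitochondrial alanine aminotransferase, stood at 110.2 and 221.3, 2.01-fold higher, a difference of 1.01. Its other probe set gave 49.4 and 76.7, a smaller difference of 0.63. Atf3, a stress factor of the same family, differed by 0.68. Slc6a9, a glycine transporter named here after its value was seen, differed by 0.60.

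Of 17 mitochondrial tRNA synthetases 8 were measured, and all 8 were on the higher side by any amount, beside 51.5% of all genes. Fars2 among them was near the floor, at 19.8 and 20.5. The median of these synthetases was 0.21, of the order of the probe error given above. At 1.5-fold 0 were higher, beside 5.01% of all genes. They were led by Iars2 at 0.42, Tars2 at 0.30, Rars2 at 0.26 and Hars2 at 0.22, while the other probe set of Hars2 above background gave -0.08. Among the other parts of the cytosolic machinery, Farsa and Farsb, the subunits of the phenylalanine enzyme, differed by 0.42 and 0.28, and the scaffold genes Eef1e1 and Aimp2 by 0.38 and -0.04. Their median over 5 genes was 0.28, with 0 past 1.5-fold. The median of the 14 cytosolic synthetases among the members was 0.06, and the difference between these lists was not tested.

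In the list of amino acid sensing by mTORC1, 1 of 16 genes was called higher at 1.5-fold and 0 lower, near the 5.01% and 7.03% of all genes, and the median was -0.09. The higher gene was Sesn1, a sestrin that p53 and FoxO factors induce, with 197.8 and 332.8 and differences of 0.75 to 1.03 over its 3 probe sets. Lamtor4, a subunit of the lysosomal anchor of mTORC1, differed by -0.46, Seh1l by -0.36 and the inhibitor Tsc1 by 0.32. The other probe set of Tsc1, near the floor at 21.0 and 19.8, gave -0.08. Sesn1 was thus higher while the member Sesn2 differed by -0.15. Of the other amino acid transporters 6 of 17 were above background, with 0 past 1.5-fold and a median of -0.08. Slc38a3 was near the floor on the control array, at 20.4, and below it on the IL-27 array, at least 1.07-fold lower. Slc15a4 differed by 0.20, Slc7a3 by -0.20 and the taurine transporter Slc6a6 by -0.08.

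**Figure D4:**
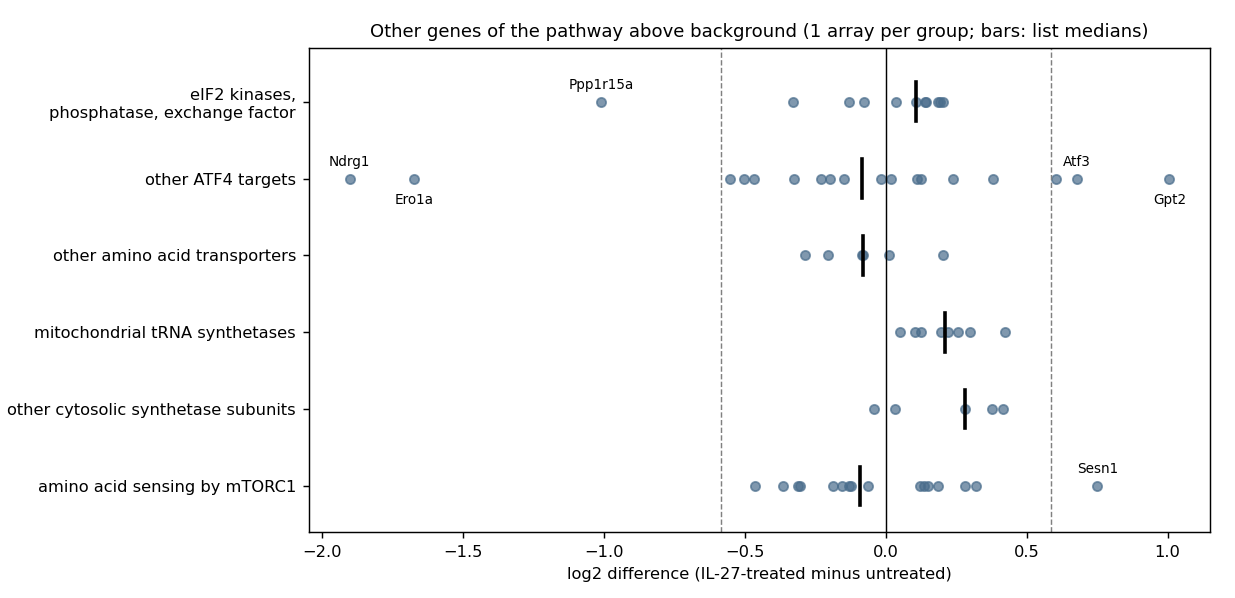
Log2 difference, IL-27-treated minus untreated (x axis), of the 64 pathway genes above background that are no members, as points in 6 lists (y axis), with list medians as bars and dashed lines at 1.5-fold. Ndrg1, Ero1a and Ppp1r15a lie left of the lower line, Gpt2, Atf3, Slc6a9 and Sesn1 right of the upper line, and all 8 mitochondrial synthetases right of 0.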

How the data were processed

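From each culture 100 ng of total RNA was amplified from the poly(A) end and biotinylated, per the labels' protocols, and read on 1 array per group. The deposited table holds an intensity for each probe set, made by the authors with RMA per the submitters' processing notes, with its version not given in the sources used here. Its linear scale is inferred from the range of the values, and every log2 difference rests on that. Because RMA equalizes intensity distributions, a global shift in RNA content is invisible, and differences at low intensity are shrunk. Of 22716 probe sets, 18003 had 1 gene symbol, 287 several and 4426 none listed; 17977 were found by Entrez identifier in RefSeq genes of GRCm38.p6, which changed 0 symbols.

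Intensities were converted to log2 with pandas 2.3.3, with no pseudocount and no further normalization, and each gene took its probe set of highest mean level. The floor is the 95th percentile of 39 measured genes of other tissues (46 listed). The members, lists, thresholds and tests were chosen with earlier results of these data known. Named are every member and, per list without members, up to 4 genes above background with the largest absolute difference; Eif2ak1, Eif2ak3, Eif2ak4, Slc6a9 and the check gene Socs3 lie outside this rule. Alternatives were no filter on dim genes, both arrays at least 2 times the floor, dim values raised to the floor, array medians subtracted, loess (limma 3.58.1), the mean of probe sets, plain probe sets only, a pseudocount of 16, a 2-fold threshold and, added after seeing the data, a floor at the 99th percentile. The procedure was run on simulated arrays with planted 2-fold changes only, which does not measure how reliable the 1.5-fold calls are here.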

Additional observations from a re-analysis of the deposited data

How the results depend on the processing

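Under 9 alternatives for each, the medians of the stress genes (-0.54 to -0.41), synthesis enzymes (0.21 to 0.29) and synthetases (0.02 to 0.09) kept their sign. All measured genes of these groups were above background on both arrays. Removing the filter on dim genes or raising dim values therefore left these medians unchanged by construction. The median of the transporters (-0.09 to 0.02) turned positive with plain probe sets only, and that of all members (-0.02 to 0.06) negative with loess and the mean of probe sets. With loess, 1 transporter, Slc7a5, was at least 1.5-fold lower in place of 0. With plain probe sets, which leave 2 synthesis enzymes without Phgdh, 0 of them and 0 of all members were higher in place of 1. With the 2-fold threshold, 1 stress gene and 1 of all members were lower in place of 5. With both arrays at least 2 times the floor, Vldlr drops out and 4 of 9 stress genes were lower at 1.5-fold. Of 298 values of single members, 294 moved by less than the SD of 0.22 between probe sets of a gene, and 0 called values changed sign. The others were Vldlr at -0.76 (mean of probe sets), -0.67 (plain probe sets) and -1.14 (pseudocount), and Qars at -0.14 (mean of probe sets). The alternatives that only filter genes or raise dim values left these values as they were by construction. The mean of probe sets did so for genes with 1 probe set. Much of the count of unmoved values was thus fixed in advance. The median of all genes ran from -0.02 to 0.05. No paired analysis was possible because each group has 1 array, which also limits the precision of every value.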
